A study of Mus musculus with 6 samples.

Results

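The genes described here encode the proteoglycans and small leucine-rich proteins of cartilage: Acan, Hapln1, Bgn, Dcn, Fmod, Prelp, Lum, Chad, Epyc and Ogn. They were taken as the rows of the deposited table whose gene name equals one of these names, which gave 10 genes of 34709. The study sequenced polyadenylated RNA of mouse articular cartilage, with 3 libraries labelled KO (knockout) and 3 labelled wildtype. Per the study's methods, both groups were aged male mice, with a KO line on the C57BL/6J background that was bought in and littermates used as wildtype. The paper gives the sequenced cartilage of both groups the same age, the oldest in the study. The deletion is described without a driver or a targeted cell type, and neither group received a treatment. The labels do not say whether a library came from 1 mouse or from a pool, so p-values measure only the spread between these libraries.

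Cartilage resists compression because aggrecan, a very large core protein loaded with chondroitin sulfate and keratan sulfate chains, is held in bulk on strands of hyaluronan. Hapln1 encodes the link protein that locks aggrecan to hyaluronan. The small leucine-rich proteins sit on collagen fibrils, where they control fibril thickness and spacing, and some of them also bind growth factors such as TGF-beta. By sequence they fall into classes, with biglycan (Bgn) and decorin (Dcn) in class I, fibromodulin (Fmod), lumican (Lum) and Prelp in class II, epiphycan (Epyc) and osteoglycin (Ogn) in class III, and chondroadherin (Chad) in class IV.

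The positions of the genes in the table equal those of the GENCODE annotation of mouse assembly GRCm38 for all 10. The class II genes Prelp (chromosome 1, 133910304 to 133921414, minus strand) and Fmod (chromosome 1, 134037254 to 134048277, plus strand) lie close together. Dcn (97479609 to 97518143), Lum (97565128 to 97572703) and Epyc (97644068 to 97682454) stand in a row on the plus strand of chromosome 10. Chromosome 13 holds Ogn (49608046 to 49624501) and, far from it, Hapln1 (89539796 to 89611652). Acan lies on chromosome 7 (79053483 to 79115099), Chad on chromosome 11 (94565047 to 94569127) and Bgn on chromosome X (73483602 to 73495933). Acan is the longest of these by transcript, with 7469 bases of merged exons in 18 blocks, and Chad the shortest, with 1680 bases in 4 blocks. Of the 10 genes, Ogn and Chad overlap a gene on the opposite strand with more than trace reads, which reached 5.76 FPKM for Cenpp over Ogn and 6.74 FPKM for Acsf2 over Chad. FPKM stands for fragments scaled by transcript length and library size, so levels of different genes can be set side by side on it. The libraries keep strand, but it is not stated whether counting used it.

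The stretch in front of the start site is shown for 3 genes whose order of libraries differed, since Prelp and Chad were highest in KO replicate 1 and Bgn was lowest there. The sequences are the 250 bases before the RefSeq start on GRCm38.p6, read along the gene, and capitals mark the letters AACAAT on either strand (the core bound by SOX factors, which reads ATTGTT on the other strand) or TATAAA on the gene's own strand (a TATA box).
Prelp, chr1:133921402-133921651, minus strand: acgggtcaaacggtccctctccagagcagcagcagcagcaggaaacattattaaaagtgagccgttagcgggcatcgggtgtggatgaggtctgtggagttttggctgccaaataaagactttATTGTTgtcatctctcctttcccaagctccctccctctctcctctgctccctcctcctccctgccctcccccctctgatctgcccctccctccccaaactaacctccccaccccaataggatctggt
Chad, chr11:94564797-94565046, plus strand: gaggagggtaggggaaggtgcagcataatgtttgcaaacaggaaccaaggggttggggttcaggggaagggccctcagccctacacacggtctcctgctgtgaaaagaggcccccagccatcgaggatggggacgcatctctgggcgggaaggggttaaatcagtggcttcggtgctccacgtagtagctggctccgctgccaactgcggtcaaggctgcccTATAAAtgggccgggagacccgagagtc
Bgn, chrX:73483351-73483600, plus strand: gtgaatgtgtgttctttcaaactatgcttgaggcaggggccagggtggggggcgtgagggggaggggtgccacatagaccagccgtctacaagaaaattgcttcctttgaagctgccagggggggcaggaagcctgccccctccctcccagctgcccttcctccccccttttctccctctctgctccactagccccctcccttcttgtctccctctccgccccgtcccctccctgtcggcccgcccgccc
The Prelp window holds ATTGTT 127 bases before the start, the Chad window holds TATAAA 28 bases before it, and the Bgn window holds neither. Over all 32851 windows of this length, 9.42% held AACAAT on either strand and 7.59% held TATAAA. Windows were found for 8 of the 10 genes, and those of Epyc (AACAAT) and Ogn (TATAAA, 227 bases before the start) also had a match. The windows shown had a GC content of 55.6% for Prelp, 60.4% for Chad and 64.4% for Bgn, beside a median of 52.4% for all windows. These matches describe letters only.

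The libraries need a description before any comparison. Total counts ranged from 52268311 to 63331135, which gives each gene described here except Epyc at least 697 counts in every library. KO replicates 2 and 3 were far more alike than any other pair: over genes with at least 200 counts, the median squared count difference was 5.82 times that of Poisson sampling, against 24.2 to 86.9 times for the other pairs of libraries. They were averaged and counted as 1 sample, which leaves 2 samples in the KO group beside 3 of wildtype. On the same measure KO replicate 1 was at 76.6 and 75.2 times against KO replicates 2 and 3. Against wildtype replicates 1, 2 and 3 it was at 78.1, 26.3 and 44.3 times. Over such genes of the whole table, KO replicate 1 was thus nearer to wildtype replicates 2 and 3 than to KO replicates 2 and 3. Where 3 values of a group are listed below, they stand in the order of its replicates 1, 2 and 3. The tissue was also mixed. Of 14 chondrocyte markers, 11 reached a mean level of 0.5 FPKM, among them Comp (41.0 to 109 FPKM) and Col2a1 (12.4 to 21.3 FPKM). Matn1 and Matn3 of the same list stayed under 0.21 FPKM in every library and were at 0 in some. Erythroid markers summed to 60690, 25200 and 24930 FPKM in the KO libraries and 71680 to 108500 FPKM in wildtype libraries. Neutrophil markers summed to 61740, 49980 and 51180 FPKM in the KO libraries and 26660 to 43280 FPKM in wildtype libraries. In such bulk tissue, fewer cells of a type and less RNA per cell cannot be told apart.

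Among the 10 genes, Chad and Dcn were the most abundant. In wildtype cartilage Chad was at 110.9 ± 36.7 FPKM (SD, n = 3) and Dcn at 107.4 ± 13.5 FPKM, followed by Lum (54.2 ± 19.6), Bgn (45.5 ± 17.7), Prelp (18.2 ± 2.73), Acan (18.0 ± 1.21), Fmod (15.2 ± 6.54), Hapln1 (9.96 ± 2.24) and Ogn (7.57 ± 0.720). Within this order the steps from Chad to Dcn, from Lum to Bgn, from Prelp through Acan to Fmod and from Fmod to Hapln1 are smaller than the larger SD of the pair. Acan, the core protein of the tissue's main proteoglycan, stood at rank 2393 to 2820 of all genes in the wildtype libraries, whereas Dcn stood at rank 344 in wildtype replicate 2 and rank 365 in wildtype replicate 3. Epyc, which marks young growth cartilage, was all but absent, with 7, 4 and 0 counts in the KO libraries and 16, 0 and 0 counts in the wildtype libraries. A count of 0 allows up to 0.0474 CPM (counts scaled to library size) in KO replicate 3 and 0.0569 and 0.0530 CPM in wildtype replicates 2 and 3, a limit of 3 counts that covers counting error only. Epyc was not tested.

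**Figure D1:**
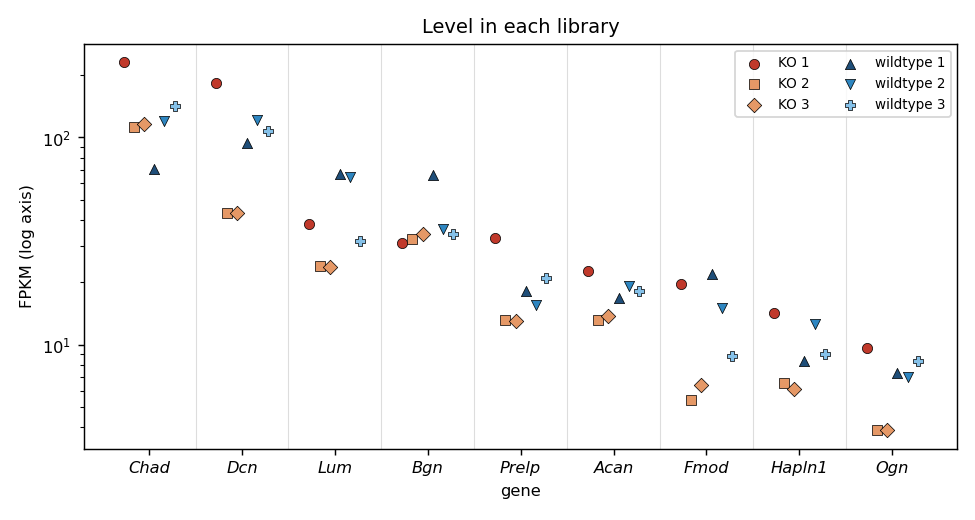
Level of each tested gene in every library, in FPKM on a log axis, with 1 point for each library. In 6 of the 9 genes KO replicate 1 (red circle) is the highest point, while KO replicates 2 and 3 (orange) lie under all wildtype libraries (blue) in 8 of the 9 genes, Chad being the exception.

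To ask whether these genes differed between KO and wildtype cartilage, edgeR's quasi-likelihood test was fitted over 15373 genes on the 5 samples. None of the 9 tested genes had a Benjamini-Hochberg adjusted p under 0.05, and by the same test 0 had an unadjusted p under 0.05. Over all tested genes 0 were called as well (0%), while 13.7% had an unadjusted p under 0.05 (7.63% higher in KO and 6.07% lower). DESeq2 called 5.72% of all genes on the same samples and 0 of the 9. Limma called 0 of all tested genes, so its 0 of the 9 follows from that. With the 6 libraries as labelled, where 3.71% of all genes were called, the count for these 9 was again 0. Of the 9, Lum alone had an unadjusted p under 0.05 in that fit, where 22.2% of all genes had one (10.3% lower in KO). The median log2 difference (KO minus wildtype) of the 9 genes was 0.04, with 5 above 0 and 4 below, and that of all tested genes was -0.02. The SE of the log2 difference ranged from 0.247 for Acan to 0.543 for Fmod.

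The split inside the KO group was the main pattern of these genes. KO replicate 1 exceeded the mean of KO replicates 2 and 3 in 8 of the 9 genes, with a median log2 ratio of 1.17, whereas over 15287 genes the median was -0.11 and 40.1% were higher in KO replicate 1. KO replicates 2 and 3 were under all wildtype libraries in 8 of the 9 genes, which holds for 25.8% of all tested genes. KO replicate 1 was over all wildtype libraries in 6 of the 9, beside 21.9% of all tested genes. Both held for 5 of the 9 genes (Acan, Hapln1, Dcn, Prelp and Ogn) and for 3.45% of all tested genes. With KO replicates 2 and 3 counted as 1 sample, this contrast is between single samples and has no test.

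The aggrecan pair was among these 5. Acan was at 22.8, 13.2 and 13.7 FPKM in the KO libraries, and at 16.7, 19.1 and 18.3 FPKM in the wildtype libraries. The KO libraries thus lay above and below all wildtype libraries, and the log2 difference was 0.04 (SE 0.247, 95% interval -0.54 to 0.62, adjusted p = 0.980 by edgeR). Hapln1 was at 14.3, 6.54 and 6.12 FPKM in the KO libraries and at 8.35, 12.5 and 9.0 FPKM in the wildtype libraries. Its log2 difference was 0.08 (SE 0.369, 95% interval -0.79 to 0.95, adjusted p = 0.968 by edgeR). The excess of Acan over Hapln1 on the log2(FPKM + 1) scale lay between 0.57 and 1.05 in the 6 libraries. It was 0.81 ± 0.24 (SD, n = 2) in KO and 0.81 ± 0.21 (SD, n = 3) in wildtype, with an adjusted p of 1.0 in an exact permutation test (two-sided, adjusted over the 3 ratios tested). With 10 arrangements of 5 samples such a test cannot give a p under 0.1.

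The class I pair differed in its order of libraries. Dcn, whose product decorin coats collagen fibrils and binds TGF-beta, was at 183, 43.2 and 43.4 FPKM in the KO libraries and at 93.9, 121 and 107 FPKM in the wildtype libraries. KO replicate 1 was 4.23 times the mean of KO replicates 2 and 3, the widest such gap of the 9 genes, and the wildtype libraries filled the space between. The log2 difference of Dcn was 0.13 (SE 0.542, 95% interval -1.15 to 1.40, adjusted p = 0.964 by edgeR). Bgn, the close relative of Dcn, was at 31.0, 32.5 and 34.2 FPKM in the KO libraries and at 65.8, 36.2 and 34.3 FPKM in the wildtype libraries. It was the one gene of the 9 whose groups did not overlap, with all KO libraries lower, which was also found for 13.7% of all tested genes. The gap was narrow, since wildtype replicate 3 lay close to KO replicate 3 and wildtype replicate 1 carried most of the difference. The log2 difference of Bgn was -0.47 (SE 0.276, 95% interval -1.12 to 0.18, adjusted p = 0.533 by edgeR), and without wildtype replicate 1 it was -0.14. The log2 ratio of Bgn to Dcn was -2.53, -0.40 and -0.34 in the KO libraries and -0.51, -1.71 and -1.62 in the wildtype libraries. KO replicate 1 had the lowest ratio and KO replicates 2 and 3 the highest, and the group means did not differ beyond this spread (adjusted p = 1.0, exact permutation test).

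Among the class II genes, Lum and Fmod varied widely within wildtype cartilage and Prelp did not. Lum was at 38.2, 23.9 and 23.8 FPKM in the KO libraries and at 66.3, 64.7 and 31.6 FPKM in the wildtype libraries. Wildtype replicate 3 was under KO replicate 1, so the groups overlapped. Its log2 difference was -0.78 (SE 0.367, 95% interval -1.64 to 0.09, adjusted p = 0.425 by edgeR), and with each library left out it ranged from -0.59 to -1.22, the latter without KO replicate 1. Fmod, which like lumican binds fibrillar collagen, was at 19.5, 5.41 and 6.35 FPKM in the KO libraries and at 21.8, 15.0 and 8.77 FPKM in the wildtype libraries. The wildtype libraries alone spanned 2.49 times for Fmod and 2.10 times for Lum, against 1.14 times for Acan. The log2 difference of Fmod was -0.21 (SE 0.543, adjusted p = 0.936 by edgeR). The log2 ratio of Fmod to Lum was -1.39 ± 0.65 (SD, n = 2) in KO and -1.78 ± 0.24 (SD, n = 3) in wildtype, which did not differ beyond the spread (adjusted p = 1.0, exact permutation test). Prelp, a basic protein that anchors basement membranes to collagen, was at 32.9, 13.2 and 13.1 FPKM in the KO libraries and at 18.1, 15.6 and 21.0 FPKM in the wildtype libraries. Its log2 difference was 0.38 (SE 0.366, adjusted p = 0.748 by edgeR).

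Ogn and Chad stood at opposite ends of the level range. Ogn was at 9.69, 3.87 and 3.86 FPKM in the KO libraries and at 7.33, 7.00 and 8.37 FPKM in the wildtype libraries. The log2 difference of Ogn was -0.12 (SE 0.375, adjusted p = 0.949 by edgeR). Chad, which encodes an integrin-binding protein of the cell's immediate surroundings, was at 230.4, 112 and 116 FPKM in the KO libraries and at 70.3, 121 and 142 FPKM in the wildtype libraries. KO replicate 1 was again the highest, but the lowest library was wildtype replicate 1. The log2 difference of Chad was 0.67 (SE 0.390, 95% interval -0.25 to 1.59, adjusted p = 0.534 by edgeR), and without KO replicate 1 it was -0.0023.

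**Figure D2:**
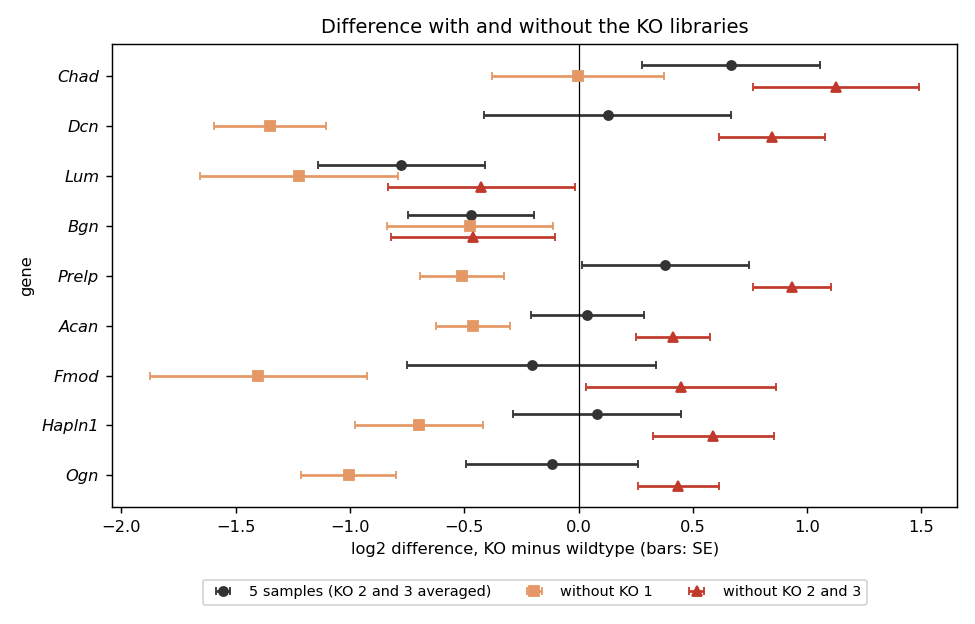
Log2 difference (KO minus wildtype) of each gene, with bars of 1 SE, in the fit of the 5 samples (black), without KO replicate 1 (orange) and without KO replicates 2 and 3 (red). Bgn stays near -0.47 in all 3 fits, whereas the orange and red points of Dcn lie at -1.35 and 0.85.

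Each KO sample was therefore also set against wildtype by itself, on the assumption that the lone sample varies like the wildtype libraries. Without KO replicate 1, all 9 genes had log2 differences under 0 and 7 of them an unadjusted p under 0.05, beside 9.89% of all tested genes that were lower at this level. None passed after adjustment (2.29% of all genes did, and 0.585% as lower), the nearest being Dcn at -1.35 (adjusted p = 0.0513 by edgeR) and Ogn at -1.01 (0.0634). Without KO replicates 2 and 3, 7 of the 9 genes had log2 differences above 0 and 5 an unadjusted p under 0.05, beside 5.36% of all tested genes that were higher. Again 0 passed after adjustment by edgeR, as 0.0585% of all genes did, and Bgn (-0.46) and Lum (-0.43) were the only genes under 0 in this fit. Bgn and Lum were lower than wildtype in every fit that was run, and the other 7 genes changed sign in at least 1 of them.

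The make-up of this group of transcripts was read from shares of their summed FPKM, which was 582, 254 and 260.1 in the KO libraries and 369, 412 and 381 in the wildtype libraries. Chad held 39.6%, 44.2% and 44.4% of the sum in the KO libraries and 19.1%, 29.3% and 37.3% in the wildtype libraries. The FPKM of Chad itself overlapped between the groups, and the sum was lowest in KO replicates 2 and 3. Dcn held 31.5%, 17.0% and 16.7% in the KO libraries and 25.5% to 29.4% in wildtype libraries. Bgn held 5.32%, 12.8% and 13.2% of the sum in KO and 17.8%, 8.80% and 9.02% in wildtype. The share of Acan stayed between 3.91% and 5.26% in all libraries. These shares have no test, since the genes were chosen with results of these data known.

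**Figure D3:**
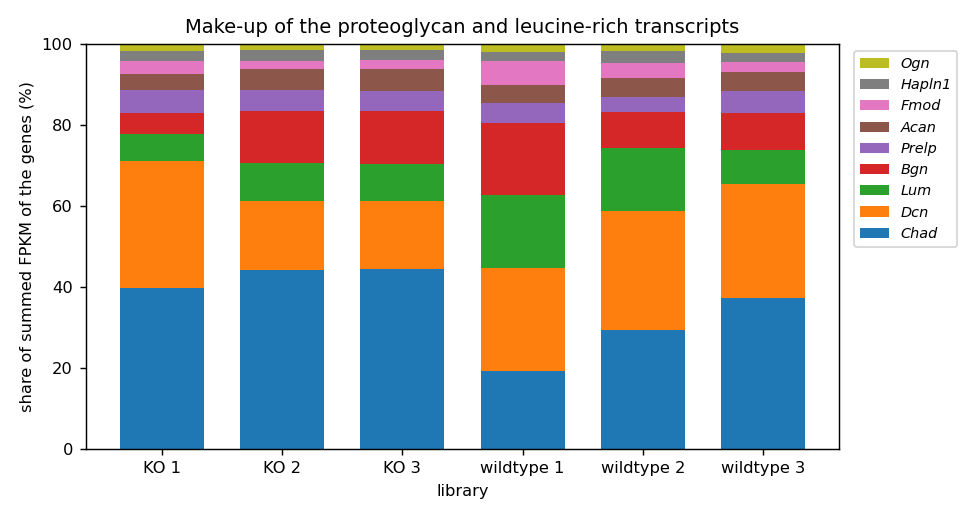
Share of each gene in the summed FPKM of the group, in percent, with 1 bar for each library (Epyc, under 0.03%, is not drawn). Chad (blue, at the bottom) takes 39.6% to 44.4% in the KO libraries and 19.1% to 37.3% in the wildtype libraries, and Dcn (orange) takes less in KO replicates 2 and 3.

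Markers of the cell types the tissue could hold followed several orders of libraries, and the mean of the chondrocyte markers followed the split. The 11 chondrocyte markers had a mean log2(FPKM + 1) of 4.31, 3.50 and 3.55 in KO libraries and 3.74, 4.13 and 3.74 in wildtype. By this mean KO replicate 1 was again the highest and KO replicates 2 and 3 the lowest. Single markers did not all follow it. Col11a1 and Col11a2 were lower in KO replicate 1 than in KO replicates 2 and 3, and Col2a1 was highest in wildtype replicate 1. The chondrocyte list summed to 795 to 2980 FPKM in KO and 649 to 1750 FPKM in wildtype libraries, most of it from Cytl1 (677 to 2760 and 471 to 1570 FPKM). Skeletal muscle markers summed to 127, 4.27 and 3.43 FPKM in the KO libraries, while the wildtype libraries held 29.7 to 239 FPKM. Osteoblast and osteocyte markers (10 of 10 tested) summed to 1018, 688 and 700.1 FPKM in the KO libraries and to 656 to 1805 FPKM in wildtype, adipocyte markers to 10.3 to 19.4 and 32.8 to 66.8 FPKM, and endothelial markers to 16.6 to 18.9 and 17.7 to 29.0 FPKM. Fibroblast markers summed to 235, 547 and 542 FPKM in the KO libraries and to 916, 491 and 246 FPKM in the wildtype libraries. Col1a1 and Col1a2 gave most of this sum, which within the KO group ran opposite to most of the genes described here. The mean log2(FPKM + 1) of the fibroblast list did not, at 4.05, 3.84 and 3.81 in KO and 3.94 to 4.90 in wildtype libraries. Tendon and ligament markers summed to 45.3, 13.7 and 11.9 FPKM in the KO libraries and 13.6 to 21.7 FPKM in wildtype libraries. Of this list 2 of 6 were tested, Kera was at 0 in KO replicates 1 and 2, and Thbs4 gave most of the sum. B cell markers summed to 86.7 to 138 FPKM in KO and 279 to 311 FPKM in wildtype libraries. By edgeR 8 of 9 were called as lower with the 6 libraries as labelled, as were 1.25% of all tested genes. In the 5 samples 0 were called, as for all tested genes (0%). The part of these cells in the levels of the 10 genes was not tested.

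Set against the chondrocyte markers of the same library, some of the genes kept a steady level and others did not. Acan minus the marker mean (both as log2(FPKM + 1)) was 0.26, 0.33 and 0.33 in the KO libraries and 0.40, 0.20 and 0.53 in the wildtype libraries. Its range over libraries was 0.33 on this scale, less than its range of 0.74 before. The range of Hapln1 went from 1.10 to 0.35 and that of Prelp from 1.27 to 0.84. Dcn kept a gap, at 3.21, 1.97 and 1.92 in the KO group and 2.80 to 3.02 in wildtype libraries. Bgn spread further than before (1.64 against 1.06), from 0.68 in KO replicate 1 to 2.32 in wildtype replicate 1. Lum was at 0.98 to 1.14 in KO and 1.29 to 2.33 in wildtype libraries, whereas its FPKM overlapped between the groups. How many of all tested genes separate on this scale was not counted.

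**Figure D4:**
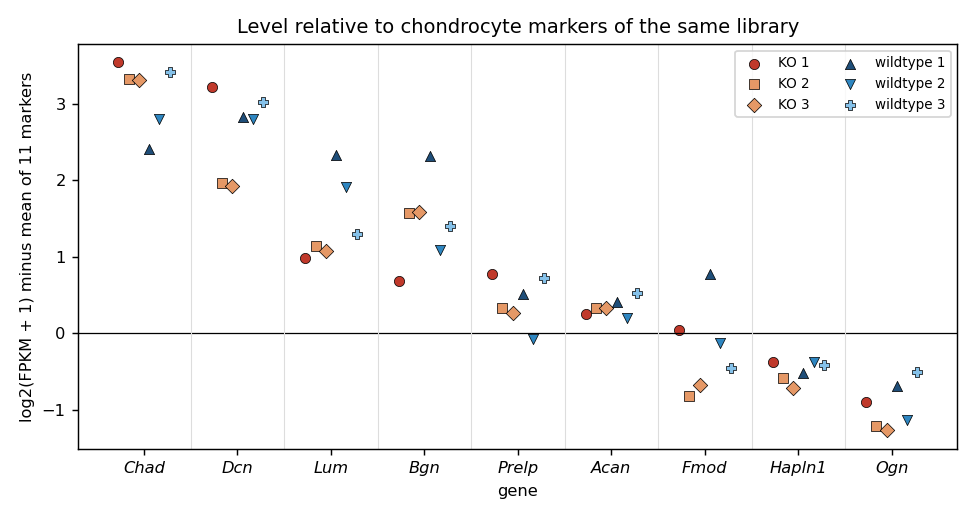
Level of each gene minus the mean of 11 chondrocyte markers in the same library, both as log2(FPKM + 1), with 1 point for each library. The points of Acan lie within 0.33 of each other, while Bgn spreads over 1.64 with KO replicate 1 lowest.

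Genes with a pattern like that of Dcn, which had the widest range of the 10 on the log2(FPKM + 1) scale (2.06), were sought among the 7613 genes that averaged 5 FPKM or more, by the root mean square difference of centred values over the 5 samples. The 5 nearest were Anxa8 (0.130), Ccn2 (0.137), Plac9b (0.149), Tnfrsf11b (0.184) and Ccn1 (0.185). Ccn2, which encodes a matricellular protein of the connective tissue growth factor family, was at 129, 39.5 and 38.0 FPKM in the KO libraries and at 66.2, 94.1 and 90.3 FPKM in the wildtype libraries. Among the other genes described here Ogn (rank 28) and Hapln1 (rank 36) came closest to Dcn and Bgn (rank 5564) was the most distant. Sharing 5 points, many genes come near by such a measure.

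The remaining small leucine-rich genes, 5 of 9 of which were tested, had a median log2 difference of -0.52 with 2 above and 3 below 0. By edgeR 0 were called in the 5 samples at an adjusted p under 0.05. At an unadjusted p under 0.05, 2 were lower in KO, beside 6.07% of all tested genes. Aspn, which encodes asporin and lies near Ogn on chromosome 13, was at 5.09, 3.13 and 2.68 FPKM in the KO libraries and at 19.5, 10 and 10.1 FPKM in the wildtype libraries. All KO libraries were lower, by -1.68 on the log2 scale (SE 0.386, adjusted p = 0.171 by edgeR), and with the 6 libraries as labelled Aspn passed the threshold at -1.84 (adjusted p = 0.0402 by edgeR), as did 1.25% of all genes in this direction. Omd, which stands between them, the most abundant gene of this list, was at 37.8, 13.7 and 12.6 FPKM in the KO libraries and at 17.2, 26.6 and 23.6 FPKM in the wildtype libraries. As for Ogn, KO replicate 1 was the highest and KO replicates 2 and 3 the lowest, which was not so for Aspn. On chromosome 10, Kera, between Lum and Epyc, stayed at or under 0.122 FPKM. Tsku and Podnl1 had log2 differences of -0.95 and -0.52 with adjusted p-values of 0.339 and 0.451 by edgeR.

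Among other genes of hyaluronan-bound aggregates, 2 of 10 were tested and 0 called in the 5 samples. By edgeR 1 was higher in KO at an unadjusted p under 0.05, beside 7.63% of all tested genes. Vcan, which encodes versican, a relative of aggrecan found in many soft tissues and in blood cells, was at 3.46, 8.58 and 8.33 FPKM in the KO libraries and at 2.45, 2.12 and 1.68 FPKM in the wildtype libraries. All KO libraries were higher, by 1.51 on the log2 scale (SE 0.325, adjusted p = 0.166 by edgeR), and with the 6 libraries as labelled Vcan passed at 1.69 (adjusted p = 0.0393 by edgeR), as did 2.46% of all genes in this direction. Its order was the reverse of that of Acan within the KO group. Cd44, a hyaluronan receptor, had a log2 difference of 0.36 (adjusted p = 0.407 by edgeR). The hyaluronan synthase genes Has1, Has2 and Has3 averaged under 0.5 FPKM and were not tested.

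For the enzymes that build chondroitin, dermatan and keratan sulfate chains, 31 of 32 genes were tested, with 14 above and 17 below 0 and a median log2 difference of -0.01. By edgeR 0 were called in the 5 samples, as for all tested genes (0%). An unadjusted p under 0.05 was found for 4, 3 of them higher in KO, beside 13.7% of all tested genes (7.63% higher). With the 6 libraries as labelled 3 were called, beside 3.71% of all tested genes. Chst3, the sulfotransferase that makes chondroitin 6-sulfate, was at 5.18, 4.08 and 3.56 FPKM in the KO libraries and at 10.4, 8.29 and 9.05 FPKM in the wildtype libraries. All KO libraries were lower, with a mean log2 difference of -1.01 (SE 0.191, adjusted p = 0.166 by edgeR) and of -1.10 with the 6 libraries as labelled (adjusted p = 0.0358). Chst12, a chondroitin 4-sulfotransferase gene and the most abundant of the list, was at 31.4, 38.2 and 36.4 FPKM in the KO libraries and at 21.7, 25.7 and 23.9 FPKM in the wildtype libraries. The log2 difference of Chst12 was 0.55 (SE 0.140, adjusted p = 0.186 by edgeR, and 0.0426 with the 6 libraries as labelled). Ugdh, which makes the glucuronic acid donor of these chains, was at 12.4 to 13.4 FPKM in KO and 9.15 to 10.6 FPKM in wildtype libraries, with a log2 difference of 0.41 (adjusted p = 0.209 by edgeR, and 0.0494 with the 6 libraries as labelled). These 3 genes were named for the smallest p-values of the list, so that their groups do not overlap is a description. Over all tested genes, the KO libraries were all lower in 13.7% and all higher in 11.3%.

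Of 15 genes for enzymes that cut these proteins or hyaluronan, with an inhibitor, 13 were tested, 11 had log2 differences under 0 and the median was -0.45. Over all tested genes 8065 of 15373 were under 0 and the median was -0.02. Without wildtype replicate 1 the median of the list was -0.25, with 11 again under 0. In that fit 7882 of all tested genes were under 0, with a median of -0.009. By edgeR 0 of the list were called in the 5 samples and 0 with the 6 libraries as labelled. In the 5 samples 3 had an unadjusted p under 0.05, all lower in KO, beside 6.07% of all tested genes. Adamts9 was at 0.375, 0.585 and 0.487 FPKM in the KO libraries and at 1.43, 0.636 and 0.733 FPKM in the wildtype libraries, and Adamts1 was at 1.08 to 1.42 and 1.41 to 2.18 FPKM. Mmp3, a stromelysin that cuts aggrecan and decorin, was at 0.982, 0.657 and 0.403 FPKM in the KO libraries and at 1.51, 2.06 and 1.70 FPKM in the wildtype libraries. The most abundant was Mmp9, a gelatinase also made by neutrophils and osteoclasts, at 201 to 343 FPKM in KO and 169 to 253 FPKM in wildtype libraries (log2 difference 0.40, adjusted p = 0.592 by edgeR).

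Among genes of the cells that make or adjoin this matrix, 0 of the 11 chondrocyte, 2 tendon and ligament, 7 fibroblast and 10 osteoblast and osteocyte markers tested were called in the 5 samples by edgeR (1 at an unadjusted p under 0.05, the fibroblast marker Pi16, which passed with the 6 libraries as labelled at an adjusted p of 0.0358). Pi16 was at 19.5 to 24.6 FPKM in KO and 12.1 to 14.1 FPKM in wildtype libraries. It was the only fibroblast marker with a log2 difference above 0. The other 6 were below 0, and the median of the list was -0.47. The matrix genes with the smallest p-values of their lists were Col9a2 (log2 difference 0.59), Col2a1 (-0.35), Snorc (0.69), Thbs4 (0.98), Fndc1 (-0.69) and Col3a1 (-1.02), with adjusted p-values from 0.406 to 0.725 by edgeR. Col9a2, Snorc and Thbs4 were highest in KO replicate 1, as Chad and Dcn were, and Col2a1 was at 16.0, 12.4 and 12.6 FPKM in the KO libraries and at 21.3, 20.3 and 13.9 FPKM in the wildtype libraries. Phex (-0.89), Ibsp (-0.52), Bglap (-0.84) and Bglap2 (-0.79) of the osteoblast list and Pdgfra (-0.47) and Col1a1 (-0.45) of the fibroblast list had adjusted p-values from 0.380 to 0.849 in the edgeR fit.

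By the annotation in the table, 9 of the 10 genes carried the term extracellular region (1820 of 25835 annotated genes), 7 the term extracellular matrix (557 genes) and 3 (Acan, Hapln1 and Prelp) the term extracellular matrix structural constituent (47 genes). Bgn, Dcn and Chad shared the term negative regulation of JAK-STAT cascade (48 genes).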

How the data were processed

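Articular cartilage of 3 KO and 3 wildtype libraries was profiled by strand-specific, paired-end RNA sequencing with molecular identifiers in the adapters. The name of the deleted gene is not reported here. The submitters' processing notes name cutadapt 1.9, HISAT2 2.0.4, UMI-tools, StringTie 1.3.4d, DESeq2 and edgeR without roles. The authors deposited 1 table with FPKM values, scaled within each library, and estimated counts, which are whole numbers that pile up at 4 (6596 values) over 3 (4170) and 5 (2332) and were not taken as single reads. No per-sample column was left unused (0).

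Genes that averaged 0.5 FPKM or more were tested by edgeR (4.0.16, R 4.3.3, TMM scaling), with Benjamini-Hochberg adjustment over all of them and a threshold of 0.05. Counts of KO replicates 2 and 3 were averaged and rounded. The scripts were tested on simulated data. Alternatives were the 6 libraries as labelled, a replicate block, DESeq2 (1.42.0), median-of-ratios scaling, limma (3.58.1) with pseudocounts of 1 and 0.1 FPKM, other filters and left-out libraries. The 10 genes, 4 pathway lists and 10 marker lists were chosen with earlier results of these data known. Named list genes are the 3 with the smallest unadjusted p-values and the most abundant of each pathway list and of the chondrocyte, tendon, fibroblast and osteoblast lists, and the 5 nearest to the gene with the widest range. Has1 to Has3, Kera, Matn1, Matn3, Comp, Col1a2, Col11a1, Col11a2, Cenpp and Acsf2 were named after their values were seen. Sequences are from RefSeq (GRCm38.p6).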

Additional observations from a re-analysis of the deposited data

How the results depend on the processing

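The count of called genes among the 9 tested was 0 under all 15 alternatives run. Over all genes, 0 calls became 570 with the 6 libraries as labelled, 879 with DESeq2, 21 without a filter and 9 without KO replicates 2 and 3, and ranged from 0 to 352 with each library left out, the highest being without KO replicate 1. In the pathway and marker lists, 0 calls became 17, 23 and 4 under the first 3 of these and ranged from 0 to 14 with each library left out. These lists had 118 tested entries, beside 15373 tested genes in all. Without a filter they had 140, beside 33520, so that count has another base. The 17 calls with the 6 libraries as labelled stand beside 3.71% of all tested genes. The 23 calls with DESeq2 stand beside 5.72%. The cause of these changes in the counts was not tested.

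Of 135 alternative log2 differences of the 9 genes, 111 kept their direction and 24 changed it. With the 6 libraries as labelled Acan, Hapln1 and Dcn were at -0.11, -0.14 and -0.22, and with limma at -0.036, -0.032 and -0.25 (pseudocount 1 FPKM) or -0.040, -0.043 and -0.26 (0.1 FPKM). Acan was at -0.0027 with a minimum of 5 FPKM. Without KO replicates 2 and 3, Fmod was at 0.45 and Ogn at 0.44. With each library left out, values ranged from -0.46 to 0.11 for Acan, -0.70 to 0.31 for Hapln1, -1.35 to 0.25 for Dcn, -1.40 to 0.12 for Fmod, -0.51 to 0.50 for Prelp and -0.0023 to 0.88 for Chad. The lowest came without KO replicate 1 for each of these, and Fmod was above 0 without wildtype replicate 1. The log2 ratio of Acan to Hapln1 (KO minus wildtype, -0.0039) was 0.053 with the 6 libraries and 0.0032 with a pseudocount of 0.1 FPKM, and that of Bgn to Dcn (-0.17) was 0.19 with the 6 libraries.

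The replicate numbers share no stated source. Deviations of same-numbered libraries correlated at -0.207, -0.184 and 0.00138, so the numbers were not taken as pairs. With the replicate block on the 6 libraries, 0 genes were called, and Acan, Hapln1, Dcn and Prelp were at -0.17, -0.25, -0.65 and -0.029.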
